A study of Mus musculus with 8 samples.

Results

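AVP neurons are the cells of the hypothalamic paraventricular nucleus (PVN) that the authors named after the gene for arginine vasopressin. They were taken here as every cell with the cell type label AVP in the deposited table, 943 of 35672 cells. They make up 2.64% of all cells and 13.3% of the 7109 neurons. The annotation splits them into 815 cells of the cluster AVP_1 and 128 cells of the cluster AVP_2. The expression of Avp and Oxt was not analysed here, so the label was not checked against its markers, and AVP below means the authors' label.

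Vasopressin is made in the PVN by large neurosecretory neurons, which send it to the posterior pituitary for release into the blood, where it acts on water balance and vessel tone. It is also made by smaller neurons that release it with corticotropin-releasing hormone at the median eminence and so take part in driving the pituitary-adrenal stress response. Oxytocin is made by neighbouring neurons of the large kind. GABA and Glut, the annotated inhibitory and excitatory neurons, serve as comparison. The remaining neurons carry a type label for mixed neurons, which covers a mixed neuron cluster of 1710 cells and a cluster labelled Neurosecretory of 375 cells.

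The cells came from PVN of C57BL/6 mice, dissociated and run on a droplet chip as 8 libraries, 1 per sex, cohort and exposure. In the baseline cohort, mice were 10 weeks old, and unstressed controls stand against mice given acute restraint stress (ARS) for 15 min. In the CMS cohort, mice were 11 weeks old, and unstressed controls stand against mice given 21 days of chronic mild stress (CMS) followed by the same restraint. Those controls have CMS in their titles but an unstressed condition, and the condition was followed here. Tissue was taken 5 h after restraint. With no replicate library, comparisons rest on arms of 4 libraries that share a sex, a cohort or an exposure, and p-values measure only the spread between libraries. The number of animals in a library is not given in the labels. Age and cohort cannot be told apart.

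Libraries held 3523 to 5777 cells and 638 to 1214 neurons, with a total of 9924892 to 15760435 UMIs (unique molecular identifiers, the counted RNA molecules). Cell numbers were 4528 to 5777 in female and 3523 to 3831 in male libraries. Of the 35672 cells, 1452 (4.07%) carried a cell barcode that occurred in more than 1 library. Among AVP cells this was so for 47 (4.98%), and among GABA and Glut cells for 3.80%. None of the 47 was an AVP cell in both libraries, but AVP is only 2.64% of all cells and 47 cells are few to judge by.

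AVP cells fell into a large group with many UMIs and a small one with few. AVP_1 cells had a median of 6399 UMIs (quartiles 5497 and 7455) and 2592 genes. AVP_2 cells had a median of 1236 UMIs (quartiles 980 and 1752) and 653 genes. The median AVP_1 cell thus held 5.18 times the UMIs and 3.97 times the genes of the median AVP_2 cell. The ranges overlapped in part, since 23 AVP_2 cells had at least the 1944 UMIs of the shallowest AVP_1 cell, and 56 AVP_1 cells had at most the 4392 UMIs of the deepest AVP_2 cell. These clusters were defined by the authors on the same cells, so the values describe them and are no test.

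The clusters also stood apart in the share of UMIs from mitochondrial genes. The median share was 2.70% in AVP_1 and 9.40% in AVP_2. A share under 5% was found in 780 of 815 AVP_1 cells and in 18 of 128 AVP_2 cells. At least 10% was found in 10 AVP_1 and 61 AVP_2 cells. The deposited doublet score was 0 in 108 AVP_2 cells (84.4%) and in 11 AVP_1 cells (1.35%). The same score was 0 in 57.6% of cells of the mixed neuron cluster and 94.1% of cells of the cluster labelled Neurosecretory, which are similarly shallow (median 1195 and 1218 UMIs).

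**Figure D1:**
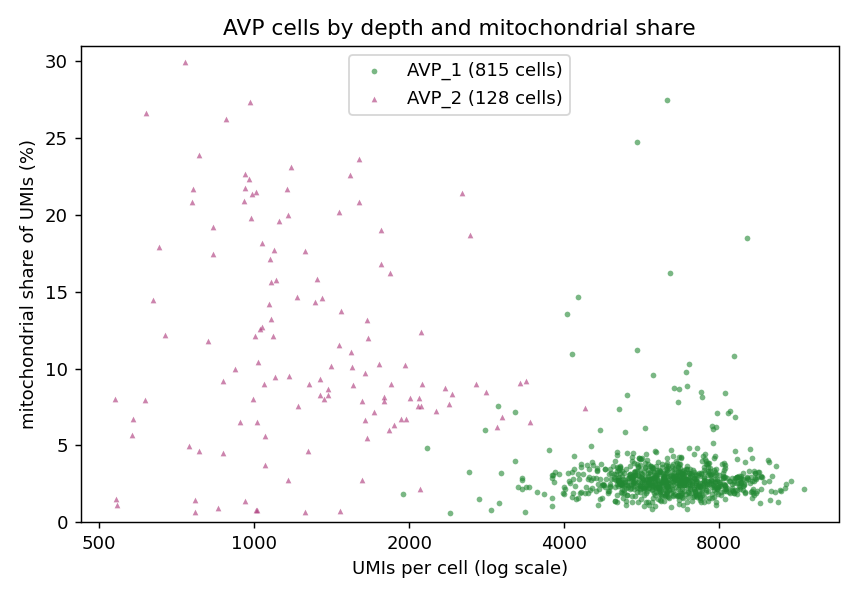
Each point is 1 AVP cell from any of the 8 libraries, with its UMIs on a log axis against the mitochondrial share of its UMIs in percent, for AVP_1 (circles) and AVP_2 (triangles). Most AVP_1 cells lie around their median of 6399 UMIs and under 5%, while AVP_2 cells lie around 1236 UMIs and spread up to 30.0%.

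The separation held in every library. Median UMIs of AVP_1 were 6326, 6297, 6129 and 6791 in the female control, male control, female ARS and male ARS libraries of the baseline cohort. In the CMS cohort they were 6030, 7312, 6768 and 6237 in the same order of groups, the stressed mice there having had CMS and ARS. Library medians of AVP_2 ran from 1063 to 2179 UMIs, the highest resting on 2 cells in the male CMS ARS library. The lowest AVP_1 median, 6030 UMIs, was above every AVP_2 median.

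Against GABA and Glut cells, each taken as a whole type, AVP cells were deeper and lower in mitochondrial share. The AVP median was above the GABA median in each of the 8 libraries, at 6180 ± 469 UMIs (SD, n = 8 libraries) against 4397 ± 708, a ratio of 1.42 (1.10 to 1.76 over libraries). It was above the Glut median, 4157 ± 905 UMIs, by a ratio of 1.51 (1.20 to 2.11). Both differences had the smallest p that 8 pairs allow (exact two-sided sign-flip permutation over libraries, p = 0.00781, adjusted p = 0.0156 over the 12 exact tests made). AVP, GABA and Glut are the authors' labels, drawn on these same cells. The tests against GABA and Glut, here and below, thus describe the labelled types and are not independent of how cells were labelled. The ratios to GABA were lowest in the female CMS ARS library, 1.10, and highest in the male baseline ARS library, 1.76.

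The median mitochondrial share of AVP cells stayed within 2.68% to 2.91% in all 8 libraries. That of GABA cells ran from 5.69% to 12.5% and that of Glut cells from 5.38% to 13.9%, so neither overlapped with AVP. The mean difference was -6.82 ± 2.14 percentage points against GABA and -6.68 ± 2.77 against Glut (exact p = 0.00781, adjusted p = 0.0156 for each). Among AVP cells 84.6% had a mitochondrial share under 5% (80.3% to 93.6% over libraries). The same held for 35.7% of GABA cells (31% to 46.8%) and 33.7% of Glut cells (23.7% to 48.6%).

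The depth advantage of AVP turned around once cells with a high mitochondrial share were set aside, a comparison added after the data were seen. Among cells with a share under 5%, library medians were 6446 ± 424 UMIs for AVP, 7599 ± 284 for GABA and 7289 ± 421 for Glut. AVP was then 1.18-fold lower than GABA and 1.13-fold lower than Glut, and lower in each of the 8 libraries against both (exact p = 0.00781 for each). In the male CMS control library the values were 7312, 7613 and 7653 UMIs. The shallow cluster AVP_2 held 12.5% ± 5.71 of AVP cells over libraries (13.6% pooled). GABA_1 held 61.4% ± 6.19 of GABA and Glut_1 62.2% ± 10.5 of Glut cells. These clusters are not alike in depth, with medians of 1236 UMIs in AVP_2, 2979 in GABA_1 and 2885 in Glut_1. The part of this mix in the depth difference was not tested.

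Cells of middling depth were rare among AVP. From 2048 to 4095 UMIs lay 55 of 943 AVP cells, 5.83% (1.12% to 13% over libraries). In the same range lay 37.5% of GABA cells (29.2% to 44.2%) and 33.3% of Glut cells (25% to 39.3%). The library ranges of AVP did not overlap with those of GABA or Glut. Because the clusters were drawn on these cells, this is a description.

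**Figure D2:**
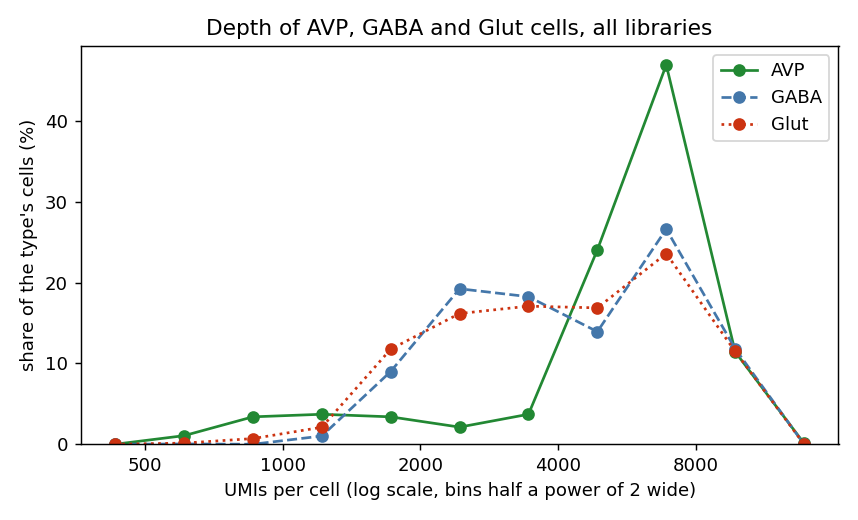
Share of the cells of each type (percent, y axis) by UMIs per cell (log x axis, bins 0.5 log2 units wide), pooled over the 8 libraries, for AVP (solid), GABA (dashed) and Glut (dotted). AVP has its peak in the bin from 5793 to 8191 UMIs and few cells from 2048 to 4095 (5.83%), where GABA has 37.5% and Glut 33.3%.

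At equal depth, AVP cells had fewer detected genes than GABA or Glut cells. Cells were compared within bins of UMIs that held at least 5 cells of both types in a library. Bin edges were at powers of 2 and bins had equal weight, so depth was not fully equal within a bin. Averaged over bins, genes per cell differed by -13% from GABA cells (-16.8% to -4.12% over libraries, log2 difference -0.20 ± 0.07, SD, n = 8). The difference from Glut cells was -10.7% (-15.3% to -2.10%, log2 -0.16 ± 0.07). AVP was lower in each of the 8 libraries (exact p = 0.00781, adjusted p = 0.0156 for each). The smallest differences were both in the male CMS ARS library. With AVP_1 cells alone the log2 difference from GABA shrank from -0.20 to -0.08 (exact p = 0.00781). That from Glut shrank from -0.16 to -0.05 (exact p = 0.0234). With narrower bins of UMIs, chosen after the data were seen, the log2 differences for all AVP cells were -0.14 and -0.13 (exact p = 0.00781 for each).

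The deep clusters, all low in mitochondrial share, also differed. From 5793 to 8191 UMIs, 443 AVP_1 cells had 2698 ± 209 genes (SD over cells) at a mean of 6822 UMIs. In this bin 578 GABA_2 cells had 3082 ± 207 genes at 7254 UMIs, 152 Glut_2 cells 3095 ± 208 at 7242, and 113 Glut_3 cells 2948 ± 209 at 7020, so the bin does not equalise depth fully. From 4096 to 5792 UMIs the means were 2257 in AVP_1, 2474 in GABA_2, 2431 in Glut_2 and 2435 in Glut_3. Within libraries and in narrow bins, genes per AVP_1 cell differed by -9.27% ± 1.19 from GABA_2, -9.05% ± 1.77 from Glut_2 and -7.32% ± 1.76 from Glut_3 (SD, n = 8 libraries), and were lower in all 8 libraries in each case. AVP_1 also had the lower median mitochondrial share in all 8 libraries against each of the 3 clusters, at 2.50% to 2.85% against 2.94% to 3.63% in GABA_2. These cluster comparisons were chosen after their values were seen and carry no test.

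An upper limit on genes touches these clusters unequally. No deposited cell had more than 3499 genes. At least 3400 genes were found in 18 AVP_1 cells (2.21%), in 17.1% of GABA_2, in 21.8% of Glut_2 and in 6.22% of Glut_3 cells. The part of such a limit in the differences in depth and genes was not tested.

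**Figure D3:**
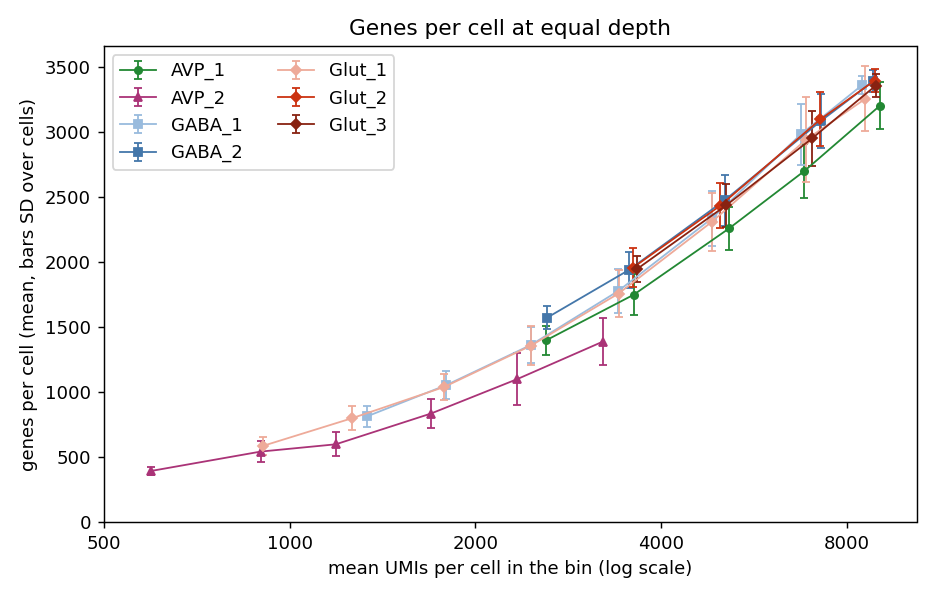
Mean genes per cell (y axis, bars SD over cells) against mean UMIs per cell (log x axis) in bins of UMIs with at least 5 cells, pooled over the 8 libraries, for the AVP, GABA and Glut clusters. From 5793 to 8191 UMIs AVP_1 lies at 2698 genes, below GABA_2 at 3082, Glut_2 at 3095 and Glut_3 at 2948.

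AVP_2 had few genes for its depth as well. From 1449 to 2047 UMIs, 31 AVP_2 cells with a mean of 1695 UMIs had 835 ± 113 genes. Cells of the mixed neuron cluster in the same bin had 966 ± 93.8 genes at a mean of 1682 UMIs, and Neurosecretory cells 1106 ± 121 at 1728. In mitochondrial share AVP_2 lay between these clusters in that bin, with a median of 9.69% against 20.4% in mixed neurons and 4.28% in Neurosecretory cells.

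How many AVP cells a library held relative to other neurons varied widely, from 4.50% (95% Clopper-Pearson interval 3.32 to 5.94) of neurons in the male CMS ARS library to 28.1% (24.6 to 31.7) in the male baseline ARS library. The other baseline libraries had 18.4% (female control), 16.3% (female ARS) and 11.8% (male control). The other CMS libraries had 12.5% (female control), 8.10% (male control) and 6.36% (female CMS ARS). Intervals cover counting error only.

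Whether stress was followed by a different AVP share of neurons gave unlike answers by pair. The share was 2.38 times that of controls in male baseline mice (95% interval 1.88 to 3.01), and 0.885 times in female baseline mice (0.742 to 1.06). After CMS with ARS it was 0.509 times in female (0.365 to 0.710) and 0.555 times in male mice (0.380 to 0.811). The intervals of these pair ratios cover counting error only and hold no spread between libraries, so they are no test of stress. Stressed libraries averaged 13.8% ± 10.8 (SD, n = 4) and controls 12.7% ± 4.25, and the groups overlapped (exact two-sided permutation of 4 against 4 libraries, p = 0.83, adjusted p = 0.83). On the tested scale, the mean log2 odds differed by -0.16, which is opposite in sign to the difference of the mean percentages. Without the female CMS ARS, the female baseline control or the male CMS ARS library the log2 difference was 0.13, 0.07 and 0.31.

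The pair ratios depended on the denominator. In male CMS mice the AVP share of all cells was 1.43% in controls and 1.33% after CMS with ARS, a ratio of 0.934, while neurons went from 17.6% to 29.7% of cells. In female CMS mice both fell short of controls, neurons at 13.6% against 21.9% of cells and AVP at 6.36% against 12.5% of neurons, and the AVP ratio among all cells was 0.315. In edgeR's quasi-likelihood test over all 17 types, with all cells as library size, AVP had a log2 fold of -0.23 (SE 0.27, adjusted p = 0.944) for stressed against control. For female against male it was 0.16 (SE 0.27, edgeR adjusted p = 0.960), in a comparison that called 5.88% of types. For stress no type passed (0% called by edgeR, 0 with unadjusted p under 0.05, 0 by DESeq2).

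Relative to GABA cells, baseline and CMS pairs lay in opposite directions. AVP cells per 100 GABA cells were 47.6 in controls and 53.6 after restraint in female, and 35.1 and 100.6 in male baseline mice, and went from 28.7 to 18.5 in female and from 20.2 to 9.73 in male CMS mice. Per 100 Glut cells the pairs were 110.9 and 74.6, 61.2 and 194.6, 76.1 and 24.6, and 28.1 and 22.1 in the same order, so the female baseline pair was lower after restraint by this measure. The cohort by stress term for AVP was -1.26 on the log2 scale with all cells as library size (SE 0.55, edgeR adjusted p = 0.439) and -1.52 with neurons as library size (SE 0.53, 95% interval -2.68 to -0.35, edgeR adjusted p = 0.0599 over the 4 neuronal types). Neither 17-type interaction gave a call (0% of types by edgeR, with 1 type for cohort by stress and 2 for sex by stress at an unadjusted p under 0.05, and 0 by DESeq2). The 1 type for cohort by stress was AVP itself, and AVP was 1 of the 2 for sex by stress.

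The series is about sex in stress responses, and the sex by stress term was -1.45 for AVP with all cells as library size (SE 0.52, edgeR adjusted p = 0.122) and shrank to -0.96 (SE 0.69) with neurons as library size. By cluster it was -1.62 (SE 0.59) for AVP_1 and 0.24 (SE 0.81, 95% interval -1.56 to 2.05) for AVP_2, neither of them called (edgeR adjusted p = 0.684 and 0.904 over 32 clusters, of which 0% were called, with 1 at an unadjusted p under 0.05). The 1 cluster under the unadjusted limit was AVP_1 itself. Whether AVP_1 and AVP_2 differ in the sex by stress term was not tested. For all AVP cells the term was called when the male CMS ARS library was left out (-1.73, edgeR adjusted p = 0.00840).

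**Figure D4:**
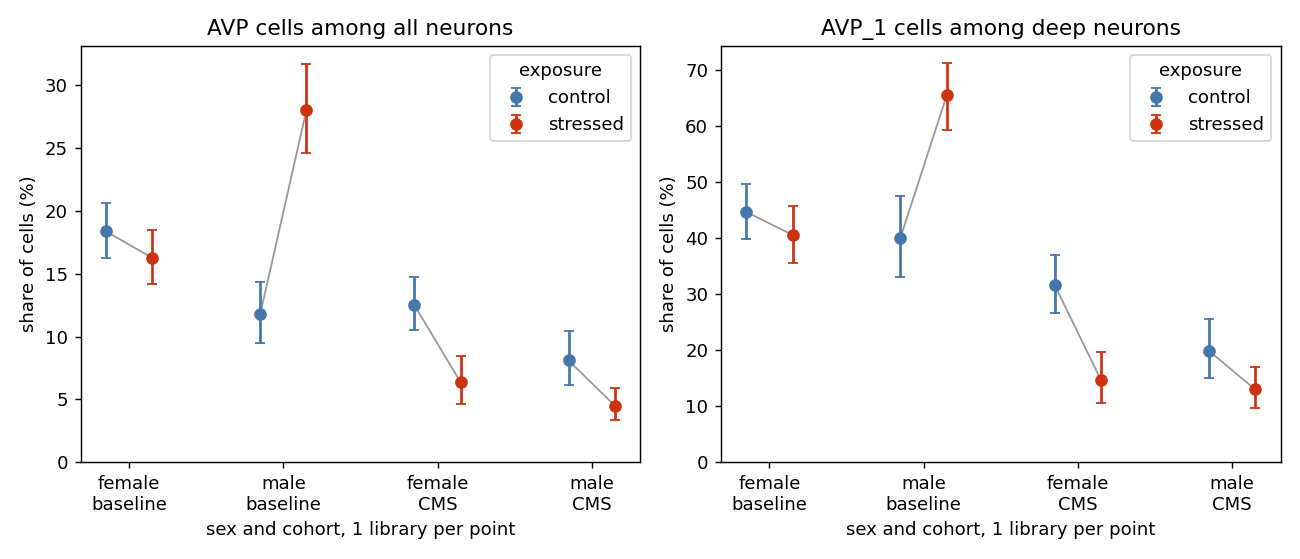
Left, AVP cells as percent of all neurons; right, AVP_1 cells as percent of the deep clusters AVP_1, GABA_2, Glut_2 and Glut_3, for the control and stressed library of each sex and cohort (1 library a point, bars exact 95% binomial intervals, lines join a pair). The male baseline pair goes from 11.8% to 28.1% on the left, and both CMS pairs lie lower after stress.

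Across cohorts, AVP cells made up 7.86% ± 3.42 of neurons in CMS and 18.6% ± 6.86 in baseline libraries (SD, n = 4 each), lower in each of 4 matched pairs. The groups overlapped by 1 library, as the female CMS control (12.5%) stood above the male baseline control (11.8%), and the difference in log2 odds of -1.45 did not pass (exact permutation p = 0.0571, adjusted p = 0.0857, smallest possible p 0.0286). Without the female CMS control, the library that overlapped, it was -1.73 (exact p = 0.0286). With any of the other libraries left out the exact p was 0.0571 or 0.0857, and it was 0.125 over matched pairs. With mixed neurons left out of the denominator, AVP made up 6.33% to 17.2% in CMS and 18.2% to 39.9% in baseline libraries, which no longer overlapped (log2 odds -1.61, exact p = 0.0286).

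The number of AVP cells among all cells was 2.31-fold lower in the CMS cohort (95% interval 1.59 to 3.36, edgeR adjusted p = 2.5e-04, in a comparison that called 17.6% of types). The cohorts pool controls with stressed mice, whose cohort ratios were further apart in these libraries, though the cohort by stress term was not called. AVP cells made up 4.01% and 2.74% of cells in female baseline and CMS controls, and 2.30% and 1.43% in male controls. In stressed libraries they made up 3.25% and 0.863% in female and 4.67% and 1.33% in male mice, in the same order. Over alternatives the edgeR adjusted p of the cohort difference ran from 4.18e-05 to 0.119. It was no longer called with TMM factors, DESeq2, without the female CMS ARS library (log2 fold -0.89, edgeR adjusted p = 0.119) or with the female baseline ARS library left out (-1.26, edgeR adjusted p = 0.0632). Set against neurons as library size, AVP was 2.43-fold lower (interval 1.31 to 4.51, edgeR adjusted p = 0.0407 over the 4 neuronal types). AVP_1 and AVP_2 were lower by nearly the same amount, 2.26-fold and 2.51-fold, neither of them called among clusters (edgeR adjusted p = 0.0877 and 0.0583, with 3.12% of clusters called).

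The cohort difference was also present among deep neurons, a comparison added after the data were seen. AVP_1 made up 44.7%, 40.1%, 40.6% and 65.5% of deep neurons in the female control, male control, female ARS and male ARS libraries of the baseline cohort. The values were 31.6%, 19.9%, 14.7% and 13% in the CMS cohort in the same order, with no overlap (log2 odds -1.96, exact p = 0.0286). Deep neurons, which include AVP_1, made up a like part of all neurons in both cohorts. The values were 33.2% ± 6.19 at baseline and 34.9% ± 1.86 in CMS. The make-up of GABA cells did differ by cohort. Shallow GABA_1 held 66.1% ± 1.18 of them at baseline against 56.7% ± 5.34 in CMS, without overlap, so GABA_2 held more in CMS. Glut_1 held 68.2% ± 6.53 of Glut cells at baseline against 56.3% ± 11 in CMS, with overlap. How far this shift enters the AVP_1 difference was not tested. Among neurons with a mitochondrial share under 5%, AVP cells made up 33.6% to 56.0% in baseline and 11.3% to 29.7% in CMS libraries (exact p = 0.0286).

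The AVP_2 share of AVP cells differed between the sexes in the exact test, while the number of AVP_2 cells among all cells did not pass in edgeR. AVP_2 made up 17%, 20.7%, 14.5% and 14% of AVP cells in the female baseline control, baseline ARS, CMS control and CMS ARS libraries. In male libraries of the same order it made up 11.8%, 4.47%, 13% and 4.26%, resting on 10, 8, 7 and 2 cells. Every female library lay above every male one, at 16.6% ± 3.09 against 8.36% ± 4.65 (log2 odds 1.20, exact permutation p = 0.0286, the smallest possible, adjusted p = 0.0490). Among all cells, AVP_2 was 2.54-fold higher in female libraries (95% interval 1.43 to 4.51, edgeR adjusted p = 0.0788), in a comparison that called 0% of the 32 clusters, with 3 at an unadjusted p under 0.05. AVP_2 was 1 of these 3 clusters. Its value among all cells was known when the share was tested, so the share is not independent of that value.

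The call on AVP_2 was thin. The exact p was 0.0857 to 0.143 without any single female library (log2 odds 1.07 to 1.27) and 0.0571 with cells of at least 1000 UMIs only (1.04). An exact test over 4 matched pairs cannot go below p = 0.125. For the other neurons, GABA_1 made up 59.5% ± 7.71 of GABA cells in female and 63.3% ± 4.55 in male libraries, and Glut_1 61.2% ± 12 and 63.3% ± 10.5 of Glut cells. The larger number of cells in each female library cannot be told apart from sex.

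Within pairs, stressed against control, the AVP_2 share of AVP cells was 4.47% against 11.8% in male baseline mice. After CMS with ARS it was 4.26% against 13% in male mice. In female mice it was 20.7% against 17% at baseline and 14% against 14.5% in the CMS cohort. This share also moves with AVP_1: in the male baseline pair the stressed to control ratio among all cells was 2.20 for AVP_1 (95% interval 1.68 to 2.87) and 0.771 for AVP_2 (0.305 to 1.95). In the male CMS pair, with 2 against 7 AVP_2 cells, the AVP_2 ratio was 0.307 (0.0637 to 1.48). The intervals of these ratios cover counting error only and hold no spread between libraries. Stressed libraries averaged 10.9% ± 7.99 and controls 14.1% ± 2.28 (exact p = 0.371, adjusted p = 0.495), and the cohorts 11.4% ± 4.82 in CMS and 13.5% ± 7.06 at baseline (exact p = 0.771, adjusted p = 0.83).

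**Figure D5:**
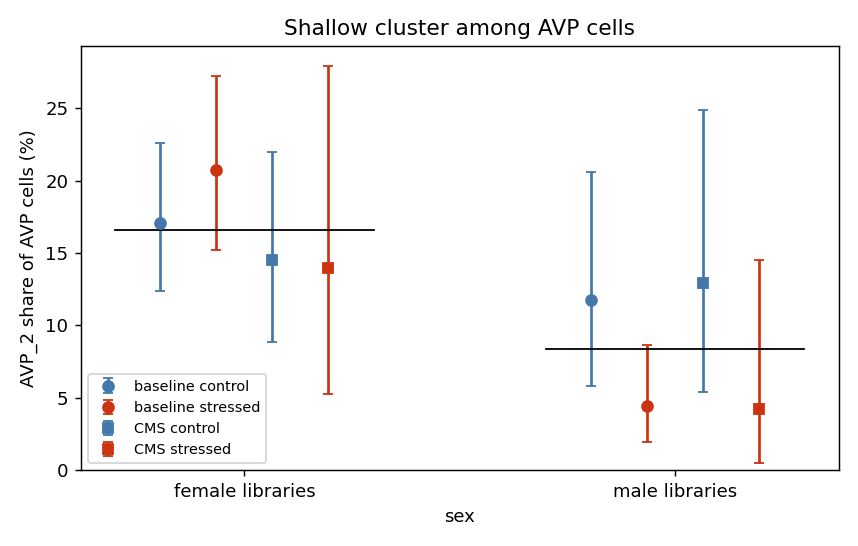
AVP_2 cells as percent of all AVP cells in each of the 8 libraries, by sex (circles baseline, squares CMS cohort, blue control, red stressed, bars exact 95% binomial intervals, black line the mean of 4 libraries). Female libraries lie from 14% to 20.7% and male libraries from 4.26% to 13%, with wide intervals in the small male libraries.

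Median depth of AVP cells passed the test in none of the 5 comparisons made with limma. Median UMIs were 6149 ± 432 in stressed and 6210 ± 570 in control libraries (SD, n = 4), a fold of 0.991 (95% interval 0.859 to 1.14; limma adjusted p = 0.999, 0% of 16 types called and 1 at an unadjusted p under 0.05). In the CMS cohort they were 6212 ± 567 and at baseline 6147 ± 435, a fold of 1.01 (0.875 to 1.16, limma adjusted p = 0.893), in a comparison that called 18.8% of types. Female libraries had 5878 ± 220 and male 6481 ± 471 UMIs, a fold of 0.908 (0.787 to 1.05, limma adjusted p = 0.497, 0% called and 1 at an unadjusted p under 0.05). With the mean of log2 UMIs in place of the median, AVP cells were 1.22-fold shallower in female libraries (limma adjusted p = 0.0197), the sex whose AVP cells held more AVP_2.

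Depth within pairs moved by small ratios. The stressed to control ratio of AVP medians was 0.952 in female baseline, 1.09 in male baseline, 1.08 in female CMS and 0.859 in male CMS mice. Genes per AVP cell had a median of 2372 to 2748 over libraries, and the fold was 0.979 for stressed against control (0.877 to 1.09, limma adjusted p = 0.973) and 0.921 for female against male (0.825 to 1.03, limma adjusted p = 0.459, in a comparison that called 6.25% of types). The median mitochondrial share of AVP cells differed from that of the matched control by -0.09 to 0.20 percentage points.

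The deposited scores of AVP cells passed in no comparison either. Library means of the scores were compared. The mean S score differed by 0.0022 between the cohorts (SE 0.0017, limma adjusted p = 0.499, 6.25% of types called). The sex by stress term of the mean doublet score was -0.10 (SE 0.12, limma adjusted p = 0.858, 6.25% called). Female minus male mean G2/M score was 0.0035 (SE 0.0038, limma adjusted p = 0.482, 25% called).

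AVP cells held more of the UMIs than of the cells, which was not particular to them. They held 5.70% of all UMIs while making up 2.64% of cells. GABA cells held 13.5% of UMIs at 7.44% of cells. The mixed neuron cluster, by contrast, held 2.22% at 4.79%, and the Neurosecretory cluster 0.585% at 1.05%. Among deep clusters, AVP_1 held 5.51% of UMIs at 2.28% of cells. GABA_2 held 7.87% at 2.89%, Glut_2 2.59% at 0.964% and Glut_3 1.46% at 0.586%. The AVP part of a library's UMIs ran from 2.05% in the female CMS ARS library to 10.3% in the male baseline ARS library. It was 5.10% to 10.3% in baseline libraries and 2.05% to 5.97% in CMS libraries, which overlapped through the female CMS control.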

How the data were processed

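The deposited table has 1 line per cell. UMIs and genes per cell are whole-number counts as deposited. The deposited mitochondrial value is a fraction of UMIs despite its column name (times UMIs it was whole within 1e-06 in 100% of cells) and was turned into percent. Doublet, S and G2/M scores are used as deposited. Cell Ranger 3.0.2 and 3.1.0, Seurat 3.1.3 and the mm10 build are named, per the submitters' processing notes; their filters are not given here, and no further doublet removal was done. Cells were joined to libraries by name, with the experiment name for restraint taken as the baseline cohort.

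Numbers of cells per type (at least 80 cells) were tested with edgeR 4.0.16 and, as an alternative, DESeq2 1.42.0. Types with at least 10 cells per library were tested with limma 3.58.1. Its input was log2 library medians of UMIs and genes, untransformed library medians of mitochondrial percent, and library means of the scores. Exposure, sex and cohort were in the models, with Benjamini-Hochberg adjustment over types or clusters. The edgeR prior for types had 71.9 degrees of freedom, and was infinite for interactions, so those errors rest on spread pooled over types. Shares were tested as log2 odds with 0.5 cells added, by exact two-sided permutation of libraries. Neurons are the labels holding AVP, GABA, Glut or Neuron. The edgeR and limma models were also run on simulated data with the same spread for every type. That does not show how well they hold on these data. The types and clusters named are AVP, GABA and Glut with their clusters, and others where an AVP value turned on them. The cells and lists were chosen with earlier results of these data known.
Added after seeing the data were the limit of 5% on the mitochondrial share, the deep clusters as denominator and the narrower bins.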

Additional observations from a re-analysis of the deposited data

Results flagged for a closer look

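In 60 sets of 4 libraries (10 measures in 6 arms), 3 had a library far from the rest by Dixon's criterion, where chance gives about 1 in 20. The female CMS control library had 76.1 AVP cells per 100 Glut cells among CMS libraries. The male CMS ARS library had 4.26% AVP_2 among AVP cells, 2 of 47, among CMS libraries. The female baseline ARS library had a median mitochondrial share of 2.91% in AVP cells among female libraries.

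The number of AVP cells per 100 GABA cells moved one way in both baseline pairs and the other way in both CMS pairs. Stressed minus control was 5.91 in female and 65.4 in male baseline mice, and -10.2 in female and -10.5 in male CMS mice. This difference between the cohorts was not itself tested in this measure. Per 100 Glut cells the pairs did not split by cohort, as the female baseline pair went from 110.9 in controls to 74.6 after restraint.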

How the results depend on the processing

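Over 20 results and 270 alternatives, 224 kept direction and side of the threshold, 12 lost the threshold, 6 gained it and 28 changed sign; where one did not hold, the cause was not tested. With a mitochondrial share under 5%, the log2 difference in median UMIs was -0.24 against GABA and -0.18 against Glut. For the AVP share of neurons, CMS against baseline passed among deep clusters (-1.96), among AVP, GABA and Glut cells (-1.61) and under 5% mitochondrial share (-1.65), and female against male was -0.027 among deep clusters. The number of AVP cells by cohort lost its call for AVP_1 (-1.18), AVP_2 (-1.33), DESeq2 (-1.03) and TMM factors (-1.03), and the sex by stress term of AVP_2 was 0.24. The AVP_2 share by sex was 1.04 with at least 1000 UMIs and 1.20 with matched pairs as a block (exact p = 0.125); pairs came from design, not replicate numbers. By cohort it was 0.16 with at least 1000 UMIs. Median UMIs were -0.00099 by cohort with at least 1000 UMIs, 0.0012 by sex divided by the library median, -0.29 by sex as mean log2 UMIs, and 0.00015 (AVP_1 cells only) and 0.019 (mean log2 UMIs) for stress.

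Leaving out each library in turn gave these log2 ranges. Median UMIs ran from -0.038 to 0.065 by cohort and from -0.048 to 0.039 by stress. The share of neurons ran from -1.73 to -1.17 by cohort, from -0.21 to 0.80 by sex and from -0.70 to 0.31 by stress. The AVP_2 share ran from -0.63 to 0.27 by cohort and from 0.92 to 1.48 by sex. The number of AVP cells ran from -1.62 to -0.87 by cohort, from -0.20 to 0.55 by sex, from -0.60 to 0.13 by stress and from -1.99 to -0.94 for sex by stress. With 1 library per group and as few as 2 AVP_2 cells in one, small differences were not detectable.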

Other observations

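The deposited S and G2/M scores gave no AVP cell a high value. The highest S score of an AVP cell was 0.141 and the highest G2/M score 0.117. A score above 0.2 in either was found in 48 of 765 oligodendrocyte precursors (6.27%), a dividing cell type. GABA and Glut cells, like AVP cells, had none above it. Their highest S scores were 0.145 and 0.136, and their highest G2/M scores 0.131 and 0.0947. Library medians of the S score of AVP cells ran from -0.0014 to 0.010 and those of the G2/M score from -0.027 to -0.0084.

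In mean doublet score AVP cells had 1.5 to 1.76 over libraries. A score of 0 was given to 12.6% of AVP cells (4.47% to 18.6% over libraries), lowest in the male baseline ARS library, which also had a low share of AVP_2.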
